A study of Mus musculus with 10 samples.

Results

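The nuclear respiratory chain subunits are the proteins of oxidative phosphorylation that are encoded in the nucleus and imported into mitochondria. Their genes were taken by symbol patterns (Nduf with a letter a, b, c, s or v and a number, Sdha to Sdhd, Uqcr, Cox4 to Cox8 subunits, and Atp5), leaving out symbols with -ps, which mark pseudogenes. The patterns held 83 of the 28165 genes measured: 35 of complex I, 4 of complex II, 8 of complex III, 19 of complex IV and 17 of complex V. Ndufa4 was counted with complex IV, to which its protein belongs. All but Cox6c2, annotated as a processed pseudogene, are annotated as protein coding.

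The study sequenced mRNA of aortic smooth muscle cells from mouse embryos of day 15.5, in 5 libraries of Eln-/- and 5 of Eln+/+ cells. Eln encodes elastin, the protein of elastic fibres in the vessel wall. The embryos of both genotypes carried the Acta2-GFP reporter and came from crosses between Eln+/- mice. After collagenase digestion, cells were sorted for GFP, for the absence of the endothelial surface protein CD31 and for exclusion of the dye DAPI, so the gate is set by Acta2 promoter activity. No treatment was given. The labels do not give the age of the parents, the Eln mutation itself, the number of embryos in a library or whether replicates are separate embryos, so p-values speak to the spread among the libraries alone, part of which may be technical.

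Complexes I and II pass electrons from NADH and succinate to ubiquinone. Complex III passes them on to cytochrome c and complex IV to oxygen, while complex V, the ATP synthase, uses the proton gradient that complexes I, III and IV build. A few subunits of complexes I, III, IV and V are encoded by mitochondrial DNA, whereas complex II is encoded wholly in the nucleus. In vascular smooth muscle, respiration supplies ATP beside glycolysis.

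Total estimated counts were 28367780 to 56371507 in the Eln-/- libraries and 26951733 to 63866416 in the Eln+/+ libraries. Eln had 0 to 36 counts in Eln-/- and 2409 to 105866 in Eln+/+ libraries. Smooth muscle markers summed to 1223 to 4278 CPM (counts scaled to a common library size) in Eln-/- and to 1163 to 2771 CPM in Eln+/+ libraries. All 10 markers had at least 1 count in each library, except Des and Smtn in Eln+/+ 1. Of these markers, Myh11 ran from 0.0377 CPM (1 count, Eln-/- 5) to 119 CPM in Eln-/- and from 1.47 to 34.5 CPM in Eln+/+ libraries. Pecam1, the gene of CD31, had 0 to 3.41 CPM in Eln-/- libraries and 0 to 7.70 CPM in Eln+/+ libraries. The 8 endothelial markers, Pecam1 among them, summed to 35.7 to 52.9 CPM in Eln-/- and to 14.5 to 59.4 CPM in Eln+/+ libraries. Fibroblast markers summed to 1409 to 3013 CPM in Eln-/- libraries against 2523 to 4963 CPM in Eln+/+ libraries, and macrophage markers to 0.0377 to 9.73 CPM against 0.132 to 19.7 CPM. Of the 10 libraries, 3 had the fewest detected genes, namely Eln-/- 4 (15595), Eln-/- 5 (15925) and Eln+/+ 1 (15089), against 18157 to 22951 in the other 7. Their total counts, 26951733 to 31366658, were also the lowest, against 39646351 to 63866416 in the other 7. Ribosomal RNA, as the gene model CT010467.1, took 5.52% to 5.99% of the counts of these 3, against 0.225% to 2.96% in the other 7. The medians of the subunits and several single subunits are given with and without them. Isoform shares and the other gene lists are not given without these 3 together.

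No nuclear respiratory subunit differed between genotypes beyond the spread of the libraries. Of the 83 genes 82 had enough counts to be tested, and edgeR's quasi-likelihood test with Benjamini-Hochberg adjustment called 0 of them at an adjusted p of 0.05, as it called 0 (0%) of all 15718 genes tested. At an unadjusted p under 0.05 there were 0 of the 82 subunits, against 81 (0.515%) of all genes. In none of the 83 did the 5 Eln-/- libraries lie wholly above or below the 5 Eln+/+ libraries, which 48 (0.305%) of all tested genes did. The smallest unadjusted p among the subunits was 0.317, for Ndufa10.

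Most point estimates were nevertheless on one side. The log2 fold change, Eln-/- over Eln+/+, was positive for 70 of 82 subunits (85.4%), against 51.5% of all genes tested. Its median was 0.33 over the subunits and 0.02 over all genes, and single values ran from -0.59 to 0.75. The median standard error of a subunit was 0.93, so the typical estimate was smaller than its own error. By complex the medians were 0.37 for complex I, 0.02 for complex II, 0.40 for complex III, 0.34 for complex IV and 0.30 for complex V.

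This direction depended on single libraries. With Eln-/- 4, Eln-/- 5 and Eln+/+ 1 left out, 9 of 82 subunits (11.0%) had a positive log2 fold change, against 52.8% of all genes tested in that fit, and the median turned to -0.22. Complex I then had 1 positive member of 35, and complexes II and III had none. Without Eln-/- 4 alone the median was -0.69 with 8 of 82 positive (50.1% of all genes tested), and without Eln+/+ 1 alone it was 1.43 with 74 of 82 positive (49.1% of all genes tested). No subunit passed the threshold in any of these fits.

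**Figure D1:**
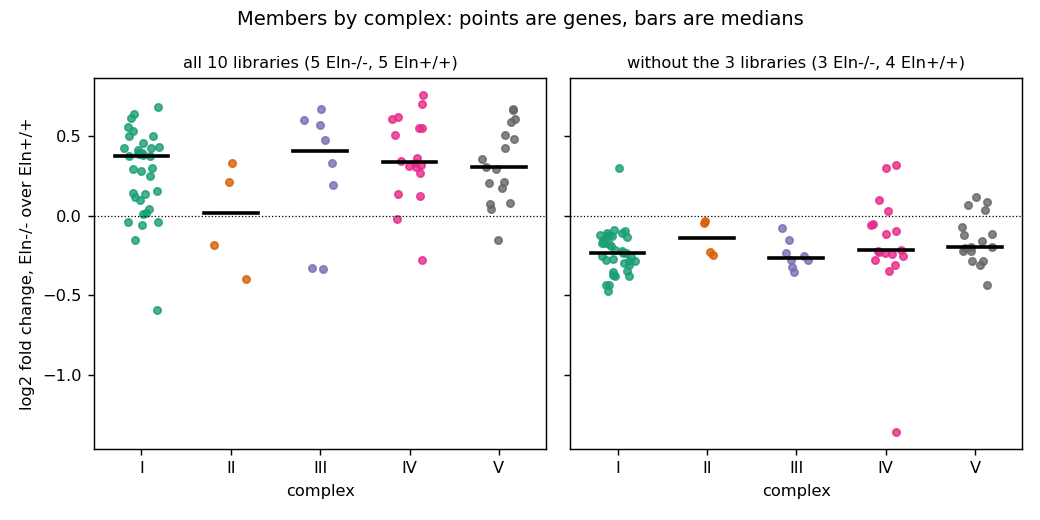
Log2 fold changes, Eln-/- over Eln+/+, of the 82 tested subunits by complex (points, 1 gene each; bars, medians), with all 10 libraries on the left and without Eln-/- 4, Eln-/- 5 and Eln+/+ 1 on the right. The medians of all 5 complexes lie above 0 on the left (0.02 to 0.40) and below 0 on the right.

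The share of all counts that fell on the 83 genes was 1.03%, 2.26%, 2.73%, 8.05% and 4.31% in Eln-/- 1 to 5 and 6.96%, 1.62%, 2.35%, 2.12% and 2.86% in Eln+/+ 1 to 5. The 3 highest shares were thus those of Eln-/- 4, Eln+/+ 1 and Eln-/- 5, and the genotypes overlapped. The summed share of complex II varied less, with members that differed in direction: it stayed between 0.0716% and 0.128% in Eln-/- and between 0.0853% and 0.126% in Eln+/+. Complex I ran from 0.333% to 2.64% in Eln-/- and from 0.515% to 2.38% in Eln+/+ libraries. The counts of the nuclear subunits came to 1.07, 3.19, 2.26, 11.9 and 3.75 times those of the 13 mitochondrially encoded subunits in Eln-/- 1 to 5. In Eln+/+ 1 to 5 the same ratio was 10.3, 1.94, 2.61, 2.79 and 3.03. Since the libraries are bulk samples, fewer cells of a type and less RNA per cell cannot be told apart.

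**Figure D2:**
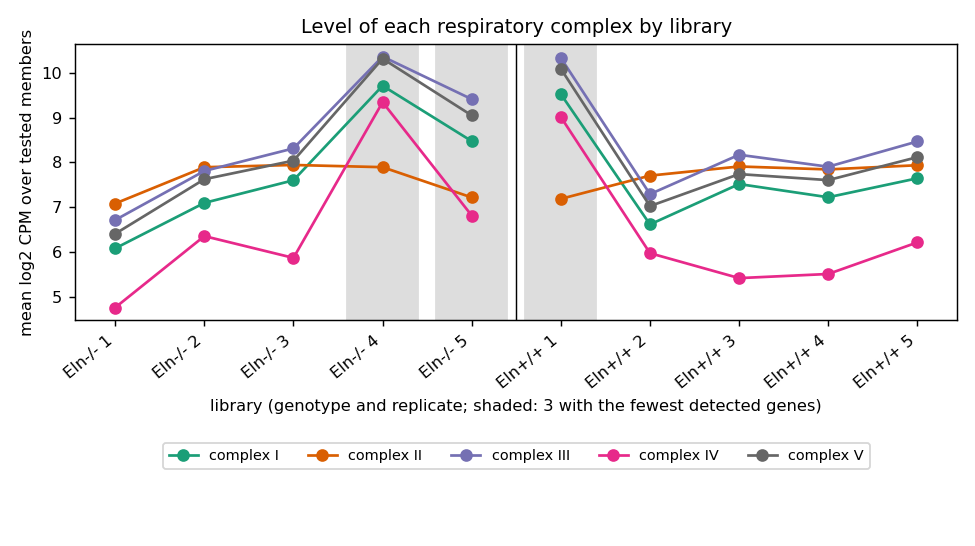
Mean log2 CPM over the tested subunits of each complex (lines) in each library, Eln-/- to the left and Eln+/+ to the right of the vertical line, with the 3 libraries with the fewest detected genes shaded. Complexes I, III, IV and V peak in Eln-/- 4 and Eln+/+ 1, while complex II lies between 7.08 and 7.94 in all 10 libraries.

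In complex I, which takes electrons from NADH, 30 of 35 members had positive and 5 negative log2 fold changes, and none passed the test. Ndufa10, an accessory subunit of the membrane arm (chromosome 1, 92439010 to 92473860, minus strand, mm10), was at 75.8, 69.9, 53.2, 23.6 and 8.14 CPM in Eln-/- 1 to 5. It was at 55.9, 81.8, 97.9, 62.4 and 49.4 CPM in Eln+/+ 1 to 5. The 2 lowest values were those of Eln-/- 5 and Eln-/- 4, and the other Eln-/- libraries lay within the Eln+/+ range; the log2 fold change was -0.59 (SE 0.56, unadjusted p = 0.317, adjusted p = 1.00 by edgeR). Without the 3 libraries it was -0.11 (unadjusted p = 0.715). Ndufa9, an accessory subunit near the ubiquinone site, had the smallest p among the members with a positive estimate. Its level was 89.2, 184, 225, 584 and 463 CPM in Eln-/- 1 to 5 and 456, 119, 192, 186 and 233 CPM in Eln+/+ 1 to 5. The Ndufa9 log2 fold change was 0.38 (SE 0.57, unadjusted p = 0.518 by edgeR), and it was -0.12 without the 3 libraries.

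In the catalytic core of complex I, Ndufs1 and Ndufv1 were lower on average in the 3 libraries with the fewest detected genes, while most other core subunits were higher. Ndufs1, the largest core subunit, which carries iron-sulfur clusters (chromosome 1, 63143596 to 63176833, minus strand), was at 54.6, 62.5, 53.6, 6.68 and 7.31 CPM in Eln-/- 1 to 5. In Eln+/+ 1 to 5 it was at 2.78, 69.2, 36.2, 47.2 and 34.6 CPM, so the 3 libraries with the fewest detected genes lay below the other 7. Ndufv1, the flavoprotein that binds NADH, was lowest in Eln-/- 4 (35.5 CPM) and in Eln+/+ 1 (65.3 CPM), but was at 243 CPM in Eln-/- 5. The Ndufs1 exons overlap those of genes on the other strand.

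Among the accessory subunits of complex I, Ndufb8, in the membrane arm, had 144, 386, 692, 3947 and 1546 CPM in Eln-/- 1 to 5 and 3197, 242, 648, 438 and 649.8 CPM in Eln+/+ 1 to 5. Ndufa7, of the matrix arm, had 4223 CPM in Eln-/- 4, against 3163 CPM in Eln+/+ 1, and Ndufb6 reached 3792 and 2496 CPM in the same libraries. Ndufs6, which had the second smallest p among positive estimates (0.532), was at 41.2 to 1816 CPM in Eln-/- and at 69.6 to 1115 CPM in Eln+/+. Ndufb10, with a negative estimate (unadjusted p = 0.846), had 791 CPM in Eln-/- 4, against 1081 CPM in Eln+/+ 1. The widest spread in complex I was that of Ndufb4, at 20.0 to 1813 CPM in Eln-/- and 29.9 to 1254 CPM in Eln+/+. In each of these accessory subunits Eln-/- 4 and Eln+/+ 1 held the 2 highest values.

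Complex II, succinate dehydrogenase, also works in the tricarboxylic acid cycle. Sdha, its flavoprotein and catalytic subunit (chromosome 13, 74322254 to 74350280, minus strand), was at 149.6, 169.9, 124, 24.8 and 5.58 CPM in Eln-/- 1 to 5. In Eln+/+ 1 to 5 it was at 4.56, 206, 145, 159 and 108 CPM. Sdha was therefore lowest in the same 3 libraries as Ndufs1, and its unadjusted p between genotypes was 0.680.

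Sdhb, the iron-sulfur subunit, had the smallest spread of all 82 tested subunits, with an SD of 0.37 on the log2 CPM scale. It was at 165, 251, 285, 291 and 346 CPM in Eln-/- 1 to 5 and at 389, 204, 339, 277 and 308 CPM in Eln+/+ 1 to 5. The Sdhb log2 fold change was -0.18 (SE 0.38, unadjusted p = 0.637 by edgeR), and it kept its sign in all 22 alternative fits. The membrane anchors Sdhc and Sdhd were at 97.6 to 478 and 141 to 927 CPM in Eln-/- and at 173 to 307 and 244 to 820 CPM in Eln+/+ libraries. Sdhc had the smallest p of the pair, with a log2 fold change of 0.33 (SE 0.45, unadjusted p = 0.485) that was -0.04 without the 3 libraries. In both Sdhc and Sdhd each of the 3 libraries with the fewest detected genes lay above each of the other 7, whereas in Sdha each lay below.

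In complex III only Uqcrc1 was lower on average in the 3 libraries with the fewest detected genes. Uqcrc1, a core protein on the matrix side (chromosome 9, 108936633 to 108949623, plus strand), was at 283, 443, 539.5, 137 and 529 CPM in Eln-/- 1 to 5 and at 248, 387, 643, 542 and 613 CPM in Eln+/+ 1 to 5. Its lowest values were in Eln-/- 4 and Eln+/+ 1. Uqcrc2, the other core protein, was at 97.0, 159, 169, 97.8 and 250.0 CPM in Eln-/- 1 to 5 and at 252.1, 124, 211, 181 and 205 CPM in Eln+/+ 1 to 5. The Uqcrc2 log2 fold change was -0.33 (SE 0.40, unadjusted p = 0.426 by edgeR) and stayed negative in all 22 alternative fits, yet the libraries of the genotypes overlapped. Its 2 highest values were in Eln-/- 5 and Eln+/+ 1, unlike those of Uqcrc1, and its value in Eln-/- 4 was among the lowest.

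Uqcrq is a small subunit next to cytochrome b. It was at 76.2, 180.1, 291, 5057 and 845 CPM in Eln-/- 1 to 5 and at 3237, 113, 226, 183 and 299 CPM in Eln+/+ 1 to 5. The Uqcrq log2 fold change of 0.67 (SE 1.25, unadjusted p = 0.602 by edgeR) became -0.15 without the 3 libraries and -1.21 without Eln-/- 4. Uqcr10 had 6204 CPM in Eln-/- 4, against 4105 CPM in Eln+/+ 1, and Uqcrh, the hinge protein that aids the docking of cytochrome c, reached 5370.4 and 3854 CPM there. Uqcrb, another small subunit, ran from 73.1 to 1178 CPM in Eln-/- and from 93.2 to 1095 CPM in Eln+/+. Again Eln-/- 4 and Eln+/+ 1 held the highest values of each.

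Complex IV, cytochrome c oxidase, had 16 positive and 2 negative log2 fold changes among 18 tested members. Cox4i1, the common form of its subunit 4, was at 302, 841, 1368, 8219 and 3519.9 CPM in Eln-/- 1 to 5 and at 5776, 535, 958, 869 and 1603 CPM in Eln+/+ 1 to 5. Ndufa4, long listed as a complex I subunit, had 8872 CPM in Eln-/- 4 and 111 to 1311 CPM in the remaining Eln-/- libraries. It had 5434 CPM in Eln+/+ 1 and 181 to 479 CPM in the remaining Eln+/+ libraries. Cox6b1, on the intermembrane side of the enzyme, ran from 134 to 3716 CPM in Eln-/- and from 213 to 3236 CPM in Eln+/+. Cox7a2 had the smallest p of complex IV, with 88.4, 192, 283, 4864 and 847 CPM in Eln-/- 1 to 5 and 2926, 106, 203, 197 and 286 CPM in Eln+/+ 1 to 5. The Cox7a2 log2 fold change of 0.75 (SE 1.22, unadjusted p = 0.548 by edgeR) was -0.06 without the 3 libraries and -1.07 without Eln-/- 4.

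In complex V, Atp5a1 and Atp5b were lower on average in the 3 libraries of fewest detected genes, and all other tested members were higher. Atp5b, the catalytic beta subunit (chromosome 10, 128083273 to 128090391, plus strand), was at 521, 918, 927, 264 and 1070.0 CPM in Eln-/- 1 to 5 and at 267, 674, 557, 777 and 938 CPM in Eln+/+ 1 to 5. Atp5a1, the alpha subunit, had its lowest values in the same libraries, 258 CPM in Eln-/- 4 against 272 CPM in Eln+/+ 1. Atp5e, the epsilon subunit of the central stalk (chromosome 2, 174461072 to 174464105, minus strand), was by contrast at 102, 329, 611, 12887 and 2129 CPM in Eln-/- 1 to 5 and at 8819, 173, 501, 389.5 and 652 CPM in Eln+/+ 1 to 5. Alpha, beta and epsilon belong to one enzyme, yet the alpha and beta transcripts were lowest, and the epsilon transcript highest, in Eln-/- 4 and Eln+/+ 1. Atp5l, subunit g of the membrane part, had the widest spread of complex V, with 47.0 to 6403 CPM in Eln-/- and 74.1 to 4666 CPM in Eln+/+. Atp5o, which joins the peripheral stalk to the head, ran from 173 to 4764 CPM in Eln-/- and from 334 to 3559 CPM in Eln+/+, and the membrane-part protein Atp5mpl from 32.3 to 2367 and from 51.5 to 1497 CPM. Atp5d, the delta subunit of the central stalk, had the smallest spread of complex V, at 128 to 582 CPM in Eln-/- and 141 to 471 CPM in Eln+/+.

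The subunits were ranked by level per kilobase of transcript, as the median of the 7 libraries outside the 3 with the fewest detected genes. Shares and ratios between genes elsewhere, and the naming of genes by mean CPM, are not scaled for length. Cox4i1 was highest at 1166 CPM per kilobase, followed by Atp5e at 925, Uqcr10 at 664, Atp5o at 649 and Ndufb8 at 645 CPM per kilobase. Among the lowest were Ndufs1 at 20.7, Ndufa10 at 34.6, Cox4i2 at 34.7 and Sdha at 51.6 CPM per kilobase. Below them lay Atp5g2, Cox7a1, Cox7b2, Cox6a2 and Cox8b, which are described further on.

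Transcript length went with the difference between libraries. Over the 82 tested subunits the median log2 CPM difference, the 3 libraries with the fewest detected genes minus the other 7, was 2.66, against -1.32 over all genes tested. Each of the 3 libraries lay above each of the 7 in 66 subunits (80.5%), against 16.0% of all genes, and below each of the 7 in 2 subunits, Ndufs1 and Sdha, against 21.5% of all genes. The 28 shortest subunits (231 to 572 bases) had a median difference of 3.24, the next 27 (590 to 955 bases) of 2.73 and the 27 longest (971 to 3171 bases) of 1.57. All genes tested in the same length ranges had medians of 1.95, 0.87 and -1.64, and genes longer than any subunit had a median of -2.58.

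Only 7 of the 82 subunits were lower on average in the 3 libraries (67.2% of all genes tested were), namely Ndufs1, Sdha, Atp5b, Ndufa10, Atp5a1, Uqcrc1 and Ndufv1. All 7 were among the 27 longest. The difference was -4.11 for Sdha (2900 bases) and -3.26 for Ndufs1 (2590 bases), against 4.31 for Atp5l (544 bases) and 4.23 for Atp5e (421 bases). Sdhc, the longest subunit transcript at 3171 bases with a coding part of 507 bases, was an exception with a difference of 0.96. Across the 82 subunits Pearson's r between log2 transcript length and the difference was -0.74 (Spearman's rho -0.68), and across 15704 tested genes r was -0.50. These are correlations across genes that share the same 10 libraries, so they describe the libraries and carry no p.

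**Figure D3:**
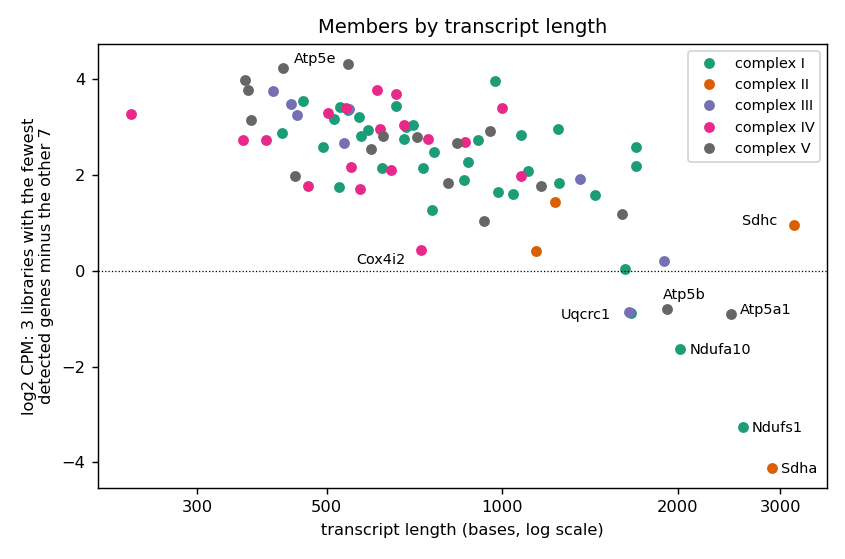
Difference in mean log2 CPM, the 3 libraries with the fewest detected genes minus the other 7, against transcript length in bases (log scale), 1 point for each of the 82 tested subunits, coloured by complex. The points descend from 4.31 for Atp5l to -4.11 for Sdha, and the shortest of the 7 below 0, Uqcrc1, has 1653 bases.

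The make-up of the subunit counts shifted accordingly. The 28 shortest subunits held 23.0%, 24.6%, 27.8%, 47.9% and 34.1% of the counts on tested subunits in Eln-/- 1 to 5. In Eln+/+ 1 to 5 they held 45.6%, 22.9%, 28.0%, 26.2% and 27.6%. The 27 longest held 45.0%, 40.5%, 36.0%, 13.0% and 26.7% in Eln-/- and 15.6%, 43.6%, 35.5%, 38.6% and 36.6% in Eln+/+ libraries. The log2 fold change between genotypes had an r of -0.53 with log2 transcript length over all 10 libraries and of 0.21 without the 3 libraries. Haemoglobin and other erythroid markers summed to 5162 CPM in Eln-/- 4, 619 CPM in Eln-/- 5 and 22.3 to 1149 CPM in the remaining Eln-/- libraries. Their sum was 18909.5 CPM in Eln+/+ 1 and 331 to 1361 CPM in the remaining Eln+/+ libraries. The part of transcript length, ribosomal RNA or erythroid RNA in the subunit levels was not tested.

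**Figure D4:**
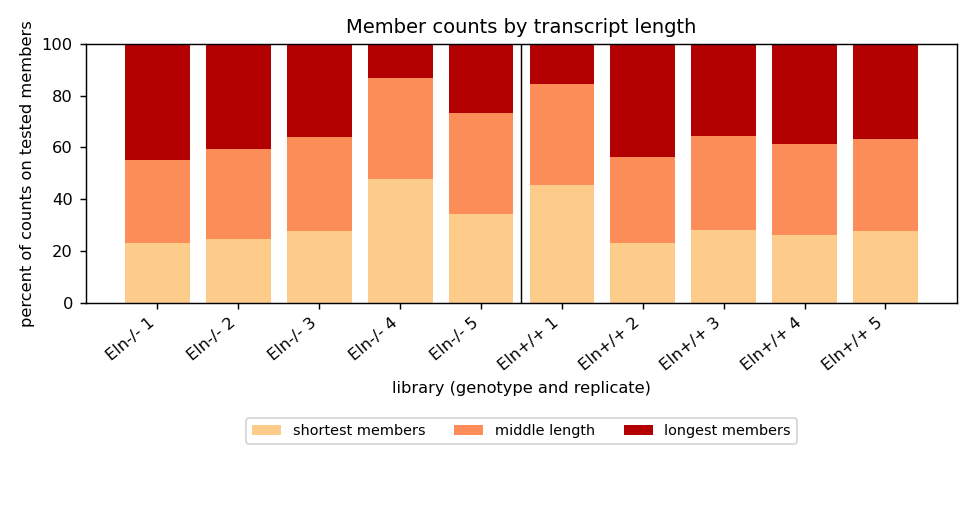
Percent of the counts on tested subunits that fell on the 28 shortest, the 27 middle and the 27 longest transcripts in each library, Eln-/- to the left of the vertical line and Eln+/+ to the right. The shortest take 47.9% in Eln-/- 4, 34.1% in Eln-/- 5 and 45.6% in Eln+/+ 1, against 22.9% to 28.0% in the other 7.

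Several complex IV subunits exist as a common form and a form of heart and skeletal muscle, or, for Cox4i2, of lung and vessels with a known response to low oxygen. The share of the second form in the counts of a pair was compared for 4 pairs; since it uses counts, it is no ratio of molecules. Cox4i2 held 7.10%, 2.73%, 2.40%, 0.236% and 1.28% of the Cox4i1 and Cox4i2 counts in Eln-/- 1 to 5 and 0.800%, 5.10%, 1.86%, 2.82% and 1.78% in Eln+/+ 1 to 5. The means were 2.75% ± 2.62 in Eln-/- and 2.47% ± 1.63 in Eln+/+ (SD, n = 5 each), and a two-sided exact permutation test gave p = 0.841. In CPM, Cox4i2 was among the steadiest subunits, at 23.1, 23.6, 33.6, 19.5 and 45.6 in Eln-/- and 46.6, 28.8, 18.1, 25.2 and 29.1 in Eln+/+ libraries, whereas Cox4i1 reached 8219 CPM in Eln-/- 4, where the share was lowest.

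The 3 muscle forms were near 0 in most libraries. Cox6a2 was at 0.329, 11.1, 0, 25.6 and 0 CPM in Eln-/- 1 to 5 and at 11.8, 12.2, 0, 0 and 0 CPM in Eln+/+ 1 to 5. Cox7a1 was at 0.507, 3.49, 0.597, 11.5 and 0.565 CPM in Eln-/- and at 15.2, 3.67, 0, 0.697 and 0.646 CPM in Eln+/+, and Cox8b at 0, 0.778, 0, 7.62 and 0 and at 3.84, 2.16, 0, 0 and 0.535 CPM. All 3 were highest in the same 4 libraries, Eln-/- 2, Eln-/- 4, Eln+/+ 1 and Eln+/+ 2. The Cox7a1 log2 fold change was -0.28 (SE 1.56, unadjusted p = 0.863 by edgeR), and it was 0.30 without the 3 libraries. The exons of Cox6a2 overlap those of Itgad on the other strand.

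As a share of its pair, Cox6a2 averaged 0.981% ± 1.34 in Eln-/- and 1.06% ± 1.93 in Eln+/+ (SD, n = 5 each; exact permutation p = 1.00). Cox7a1 averaged 0.574% ± 0.702 in Eln-/- and 0.889% ± 1.39 in Eln+/+ (n = 5 each, exact permutation p = 0.722). Cox8b averaged 0.148% ± 0.215 in Eln-/- and 0.315% ± 0.472 in Eln+/+ (n = 5 each, exact permutation p = 0.643). Of single libraries, the widest 95% Wilson interval was 6.78% to 7.43% for Cox4i2 (Eln-/- 1) and 3.01% to 3.73% for Cox7a1 (Eln+/+ 2), and a count of 0 allows a Cox6a2 share of up to 0.0186% and a Cox8b share of up to 0.0320% (3 counts), counting error only. The adjusted p was 1.00 for each of the 4 pairs, and the smallest p that all assignments of 5 against 5 libraries allow is 0.00794. Cardiomyocyte markers, 10 genes such as Myh6 and Tnnt2, summed to 540.1 and 388 CPM in Eln-/- 2 and 4 and to 535 and 573 CPM in Eln+/+ 1 and 2. In the other libraries they summed to 16.8 to 65.9 CPM in Eln-/- and to 1.18 to 50.4 CPM in Eln+/+. Of the 10 markers 0 were at 0 counts in Eln-/- 1 and Eln+/+ 2, 1 in Eln-/- 2 and 3 in Eln-/- 4. In Eln+/+ 1, 6 were at 0 counts, Tnnt2 among them. Skeletal muscle markers summed to 55.1, 119, 14.9, 174 and 10.4 CPM in Eln-/- 1 to 5. For Eln+/+ 1 to 5 the skeletal muscle sums were 23.1, 53.7, 2.66, 35.5 and 147 CPM. A list of brown fat and heart isoform genes summed to 27.1, 41.7, 81.4, 309 and 193 CPM in Eln-/- 1 to 5. Its sums were 554, 48.1, 72.9, 99.3 and 68.7 CPM for Eln+/+ 1 to 5. The part of any of these marker lists in the muscle forms was not tested.

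**Figure D5:**
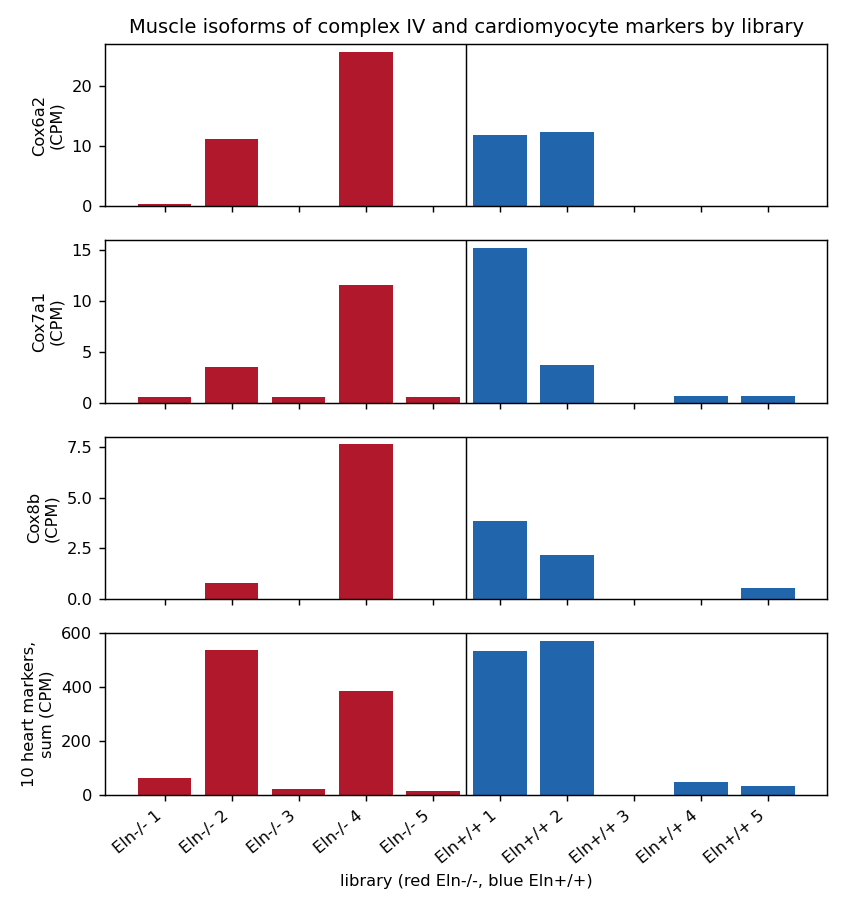
CPM of Cox6a2, Cox7a1 and Cox8b and the summed CPM of 10 cardiomyocyte markers in each library (bars; red, Eln-/-; blue, Eln+/+). Each panel has its tallest bars in Eln-/- 2, Eln-/- 4, Eln+/+ 1 and Eln+/+ 2, where the markers reach 388 to 573 CPM.

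The common partners of these forms were detected in every library. Cox6a1 was at 200.1 to 1413 CPM in Eln-/- and 263 to 1374 CPM in Eln+/+, and Cox8a at 128 to 1610.2 and 189 to 1281 CPM. Cox7a2l, a relative of Cox7a2, ran from 121 to 1476 CPM in Eln-/- and from 199 to 1242 CPM in Eln+/+. Cox6b2, known as a testis form in mammals, was detected throughout, at 9.64 to 114 CPM in Eln-/- and 12.3 to 84.7 CPM in Eln+/+, while Cox7b ran from 74.6 to 2957 CPM and from 103 to 2481 CPM. Cox7b2, likewise known from testis, was the subunit with too few counts to test: it had 3, 0, 16, 0 and 0 counts in Eln-/- 1 to 5 and 0, 26, 0, 0 and 37 in Eln+/+ 1 to 5.

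Subunit c of complex V forms the rotating ring of the enzyme and is encoded by Atp5g1, Atp5g2 and Atp5g3, which differ in their import leader. Their coding sequences (GENCODE, mm10) translate to the same last 78 residues, yet share 84.8% (Atp5g1 and Atp5g2), 78.5% (Atp5g1 and Atp5g3) and 77.2% (Atp5g2 and Atp5g3) of the bases there. The first 120 bases of that shared end are shown. Capitals mark the 33 positions at which the genes differ, by which reads from this stretch can be told apart among the 3 genes.
Atp5g1: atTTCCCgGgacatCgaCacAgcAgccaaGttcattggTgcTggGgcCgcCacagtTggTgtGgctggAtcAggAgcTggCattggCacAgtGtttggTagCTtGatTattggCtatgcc
Atp5g2: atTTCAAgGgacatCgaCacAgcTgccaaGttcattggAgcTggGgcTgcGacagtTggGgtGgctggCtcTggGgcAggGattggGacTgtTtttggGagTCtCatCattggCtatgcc
Atp5g3: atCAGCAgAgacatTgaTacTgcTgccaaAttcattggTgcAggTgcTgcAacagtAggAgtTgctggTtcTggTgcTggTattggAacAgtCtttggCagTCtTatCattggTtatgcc

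Atp5g3 had the most counts of the 3 subunit c genes in every library. It was at 134, 353, 423, 3848 and 952 CPM in Eln-/- 1 to 5 and at 2309, 235, 269.6, 326 and 461 CPM in Eln+/+ 1 to 5, which is 68.2% to 77.0% of the 3 genes' CPM in Eln-/- and 64.5% to 75.6% in Eln+/+. The Atp5g3 log2 fold change was 0.67 (SE 0.97, unadjusted p = 0.505 by edgeR), the smallest p of complex V, and it was -0.07 without the 3 libraries. Per kilobase, the median of the 7 libraries was 457 CPM for Atp5g3, 242 CPM for Atp5g1 and 7.31 CPM for Atp5g2. Atp5g1 ran from 58.4 to 1236 CPM in Eln-/- and from 95.4 to 1037 CPM in Eln+/+. Atp5g2 was listed at only 2.20 to 13.2 CPM in Eln-/- and 2.50 to 21.4 CPM in Eln+/+, and its log2 fold change was -0.15 (SE 0.89, unadjusted p = 0.865 by edgeR).

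The low Atp5g2 values cannot be read as low expression. The gene model Gm10175 has a stretch identical to all 441 bases of the Atp5g2 coding sequence and held 108152 counts, against 2122 for Atp5g2. Which of the 2 the reads came from cannot be told from the counts. Gm10039 is likewise 99.8% identical to Atp5g1 over 411 bases and held 142992 counts, against 92679 for Atp5g1. With the counts of the copies Gm10039, Gm10175 and Gm10231 added to the total, Atp5g3 held 37.0% to 46.9% in Eln-/- and 35.3% to 42.7% in Eln+/+ libraries, so whether it is the main source of subunit c transcripts cannot be told from the counts.

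Such copies touched 23 of the 83 subunits, taking a copy as a transcript at least 95% identical over at least 80% of the coding sequence. In 19 of these the copies in the table held over 5% as many counts as the subunit. Ndufb4c, identical to Ndufb4, held 1.89, 2.02, 2.12, 1.99 and 2.00 times the counts of Ndufb4 in Eln-/- 1 to 5 and 1.88, 2.04, 2.01, 2.08 and 1.92 times in Eln+/+ 1 to 5. The processed pseudogene Cox6c2 held 16.7% to 17.8% of the Cox6c counts in Eln-/- and 16.6% to 18.3% in Eln+/+ libraries, and Gm10221 0.761 to 0.801 and 0.729 to 0.771 times those of Atp5l. These ratios were nearly constant while the levels of the genes differed many times over between libraries, and the values of these subunits are uncertain to that extent. Exons of 29 subunits also overlap those of another gene, and the strand setting of the counting is unknown.

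The promoters of these genes are known for sites of NRF1, of ETS factors such as GABP and of YY1. In RefSeq's promoter windows (GRCm38.p6, 300 bases that span a gene's start), 68 of the 83 subunits had a window. The NRF1 core GCATGCGC, searched on both strands, was found in 10 of 68 subunit genes (14.7%), in 3.05% of all 27025 genes with a window and in 5.97% of those that were tested here. The ETS motif CCGGAAG was found in 17 (25.0%), in 9.93% of all genes and in 20.2% of the tested genes. The YY1 motif AAGATGGC was found in 10 (14.7%), in 3.19% of all genes and in 5.28% of the tested genes, and TATAAA in 8 (11.8%), 15.7% and 9.18%. At least 1 of the first 3 motifs was in 31 subunit genes (45.6%), in 14.9% of all genes and in 28.5% of the tested genes.

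The windows of 3 subunits are shown as examples and do not stand for all 68 genes. Sdhb had the steadiest level of all, while Uqcrc1 and Uqcr11 belong to one complex and had their lowest and highest levels in the same libraries. Uqcr10 and Uqcrh of that complex were also highest there, but the Uqcr10 window holds 0 matches and the Uqcrh window 1 ETS motif alone. Capitals mark motif matches on either strand. The NRF1 core and its reverse complement overlap in Uqcrc1, where 1 run counts as 2 matches.
Sdhb, chr4:140961021-140961320, plus strand: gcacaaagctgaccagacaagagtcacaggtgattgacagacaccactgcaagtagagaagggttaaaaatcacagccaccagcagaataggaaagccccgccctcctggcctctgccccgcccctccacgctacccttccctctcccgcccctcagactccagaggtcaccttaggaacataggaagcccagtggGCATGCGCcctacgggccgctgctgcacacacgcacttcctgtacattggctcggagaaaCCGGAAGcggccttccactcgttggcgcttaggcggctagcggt
Uqcrc1, chr9:108936398-108936697, plus strand: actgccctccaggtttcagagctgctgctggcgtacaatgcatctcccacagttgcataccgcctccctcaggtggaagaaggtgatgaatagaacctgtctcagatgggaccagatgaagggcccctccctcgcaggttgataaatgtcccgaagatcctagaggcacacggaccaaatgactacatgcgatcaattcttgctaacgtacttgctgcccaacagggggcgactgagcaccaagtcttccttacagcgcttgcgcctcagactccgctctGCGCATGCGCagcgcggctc
Uqcr11, chr10:80406772-80407071, minus strand: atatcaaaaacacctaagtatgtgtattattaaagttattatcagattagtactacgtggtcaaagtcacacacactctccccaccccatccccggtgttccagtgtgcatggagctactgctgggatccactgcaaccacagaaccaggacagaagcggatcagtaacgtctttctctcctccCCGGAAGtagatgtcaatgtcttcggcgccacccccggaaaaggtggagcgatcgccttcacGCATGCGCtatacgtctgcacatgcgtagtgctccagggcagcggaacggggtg
Each of the 3 holds the NRF1 core, which only 10 of 68 subunit genes hold, and Sdhb and Uqcr11 hold an ETS motif as well. Uqcr11, a small subunit of complex III, was at 71.9, 187, 298, 3053 and 826 CPM in Eln-/- 1 to 5 and at 2288, 123, 273, 205 and 298 CPM in Eln+/+ 1 to 5. A match describes the letters of a window and not binding of the factor.

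The other genes of mitochondrial respiration had no member past the threshold either. Of 44 assembly factors tested, 25 had a positive log2 fold change, with a median of 0.13, and the smallest unadjusted p was 0.150, for the complex I assembly factor Ndufaf6. Of 17 tricarboxylic acid cycle enzymes 4 were positive, with a median of -0.25; the smallest p was 0.450, for Idh3b, a subunit of isocitrate dehydrogenase. Of 11 tested regulators 3 were positive (median -0.12, smallest p 0.234 for Tfb2m, a mitochondrial transcription factor), and of 18 electron carriers and other subunits 6 were positive (median -0.19, smallest p 0.202 for Coq2, of ubiquinone synthesis). Import proteins, porins and chaperones had 9 of 18 positive (median -0.03, smallest p 0.293 for Tomm22, an import receptor). The 13 mitochondrially encoded subunits had 10 positive and a median of 0.40, with the smallest p of 0.191 for mt-Nd3 of complex I. In the 3 libraries with the fewest detected genes, the assembly factors were higher by a median of 0.57 on the log2 CPM scale and the mitochondrially encoded subunits by 0.23, while the tricarboxylic acid cycle enzymes had a median difference of -2.50.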

How the data were processed

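Bulk mRNA sequencing libraries were made with a low-input kit, per the labels' protocols. The authors deposited 1 table of estimated counts per gene and library, not scaled for depth. Between 23.5% and 48.8% of the values of a library were not whole (tolerance 1e-06), so they were rounded. The submitters' processing notes name STAR, DESeq2 and mm10; no source used here gives versions, the counting program, its annotation or its strand setting. The end coordinates lay 1 base above those of GENCODE mouse release M21; with 1 taken off, 27876 genes (99.0%) had the same span, and coordinates are given so. Each column's library follows from its sample name, per the labels.

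Genes were kept by edgeR's filterByExpr (15718 of 28165), libraries were scaled by TMM, and genotypes were compared with edgeR's quasi-likelihood test (two-sided, genotype only, Benjamini-Hochberg over all genes tested). CPM used TMM-scaled library sizes, and log2 CPM a prior count of 2. The procedure was also run on simulated counts, drawn for each gene on its own. These hold no shift shared by many genes of a library, so no conclusion is drawn from them. Depth was 26951733 to 63866416 counts and was lowest in the 3 libraries with the fewest detected genes. The biological coefficient of variation was 1.16. The part of each in the precision was not tested. Isoform shares were compared by exact permutation over libraries. Copies were found with BLAST+ 2.17.0. Work was done in R 4.3.3 with edgeR 4.0.16, DESeq2 1.42.0 and limma 3.58.1, and in Python 3.11.15 with scipy 1.17.1. Alternatives covered scaling, filter, tool, replicate block and left-out libraries.

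The subunits, gene lists and alternatives were chosen with earlier results of these data known. Genes were named by rule: in each complex the 3 highest and 2 lowest by mean CPM, the 2 smallest p in each direction and the widest and narrowest spread; untested members; isoform groups, subunit c and complex II; and the smallest p of each pathway list. The values of 1 complex I subunit that this rule names are not reported here. Ndufv1, Atp5a1, Atp5b, Uqcr11 and the copies were named after their values were seen.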

Additional observations from a re-analysis of the deposited data

Results flagged for a closer look

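Among 184 comparisons of a library with the other 4 of its genotype, 18 values stood apart by Dixon's 95% criterion, where chance flags about 1 in 20; the comparisons share libraries and are not independent. Most were values of Eln+/+ 1, the library with the fewest detected genes. The mean log2 CPM of complex IV was 9.01 there, against 5.42 to 6.22 in the other 4 Eln+/+ libraries. On the log2 CPM scale Eln+/+ 1 also stood high for the complex I subunits Ndufb2 (11.2), Ndufb3 (8.45), Ndufc2 (11.0) and Ndufv3 (10.0) and for the complex III subunits Uqcrb (10.1) and Uqcrq (11.7). It stood high for Cox5a (9.15), Cox6b1 (11.7) and Ndufa4 (12.4) of complex IV and for Atp5g1 (10.0), Atp5j2 (10.8) and Atp5mpl (10.5) of complex V. It stood low for Ndufs1, at 1.49 against 5.11 to 6.11 in the other 4, and for Sdha, at 2.20 against 6.76 to 7.69.

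Eln+/+ 2 stood apart in the muscle forms of complex IV. Cox7a1 held 3.35% of the counts of its pair there, against 0% to 0.517% in the other 4 Eln+/+ libraries. Cox6a2 held 4.44%, against 0% to 0.854%, and Cox8b 1.13%, against 0% to 0.299%. The cardiomyocyte markers summed to 573 CPM in the same library.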

How the results depend on the processing

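No respiratory subunit passed the threshold in any of the 22 alternative fits. Across all genes, with 0 called by edgeR, DESeq2 called 28 on all genes and 6 on the filtered genes, limma-voom 2, limma-voom with sample quality weights 7, and edgeR 1 without both Eln-/- 1 and Eln+/+ 2, libraries high in immediate early genes. With 1 library left out edgeR called 0 to 1 genes. The median log2 fold change of the subunits was 0.13 to 0.58 with any library but Eln-/- 4 or Eln+/+ 1 left out, -0.69 without Eln-/- 4 and 1.43 without Eln+/+ 1. By complex these fits gave -0.62 to 1.35 (I), -0.12 to 0.22 (II), -0.78 to 1.74 (III), -0.92 to 1.48 (IV) and -0.62 to 1.54 (V). The median was 0.15 with limma-voom, 0.01 with quality weights, 0.15 with total counts and 0.28 to 0.40 with the other scalings, filters and tools. In their deviations from the genotype mean, same-numbered libraries correlated at -0.56, 0.51, 0.12, -0.38 and 0.09. These values have both signs and do not settle whether replicate numbers pair libraries. With the replicate block the median was 0.38, and Atp5g2 (0.31) and Cox7a1 (1.00) changed sign. These 2 genes were also positive with limma-voom (0.14 and 0.94), with quality weights (0.47 and 1.56) and without the 3 libraries of fewest detected genes (0.084 and 0.30). Without those 3, Atp5g3 (-0.073), Cox7a2 (-0.056), Ndufa9 (-0.12), Sdhc (-0.037) and Uqcrq (-0.15) became negative. With 1 library left out Atp5g2 ran from -0.62 to 0.93, Atp5g3 from -0.62 to 1.85, Cox7a1 from -1.64 to 1.43, Cox7a2 from -1.07 to 2.70 and Uqcrq from -1.21 to 2.69. The isoform share differences, Eln-/- minus Eln+/+ in percentage points, ran from -0.81 to 0.93 (Cox4i2), -0.57 to 0.77 (Cox6a2), -0.62 to 0.30 (Cox7a1) and -0.25 to 0.037 (Cox8b); as log2 ratios Cox4i2 (-0.28), Cox7a1 (0.28) and Cox6a2 (1.15) changed sign. The cause was not tested.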
